A study of Mus musculus with 12 samples.

Results

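Kidneys of mice given busulfan were compared with control kidneys across all genes of a deposited expression table. The members were 6 of the 12 RNA sequencing libraries of the series: 3 labelled busulfan and 3 labelled control. All came from kidneys of 8-week-old ICR mice, an outbred strain. The control label names no agent. The labels give no busulfan dose or timing and no sex, and do not state that each library is a different animal. The p-values thus reflect only how far these libraries differ, which may be technical. The other 6 libraries came from mice given an agent named L.J. with or without busulfan. They were not compared here, but entered the estimate of the spread, the expression filter, and the rescaling and corrections used below. The series title asks whether L.J. counters adverse effects of busulfan on the kidney, and the comparison here is the effect of busulfan that this question starts from.

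Busulfan alkylates and crosslinks DNA and is used to clear bone marrow before a transplant. In the body it is inactivated mainly by conjugation to glutathione, a reaction carried out by glutathione S-transferases, of which the alpha class is the most active on it in humans. DNA crosslinks are repaired by the Fanconi anaemia and excision repair pathways, and unrepaired damage activates p53, which switches on genes such as Cdkn1a. The kidney is built mostly of proximal tubule cells, whose enzymes and transporters differ in level between male and female mice and over the day.

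Transcript levels were given as FPKM, which divide fragments by transcript length and by the library's mapped total, and 12281 genes that reached 1 FPKM in at least 3 of the 12 libraries were tested. Changes are on the log2(FPKM + 1) scale, which understates the change of low genes. A gene was called when its Benjamini-Hochberg adjusted p in limma was under 0.05. The FPKM sums of the 6 libraries ran from 486116 to 541844 and their relative depths, read from the steps between low values, from 0.917 to 1.032, while absolute depth is unknown. Markers of the proximal tubule (Slc34a1, a phosphate transporter, 2225 to 3426 FPKM), the thick ascending limb (Umod, 652 to 1315 FPKM) and the collecting duct (Aqp2, 38.5 to 70.9 FPKM) were present in all 6 libraries. The adrenal gene Cyp11b1 was listed at 0 in each.

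The busulfan libraries were not alike. Genes differing at least 2-fold made up 1.14% of tested genes between busulfan 1 and 2, 5.86% between busulfan 1 and 3, and 7.3% between busulfan 2 and 3. Busulfan 3 differed that much from single control libraries at 1.44% to 1.55% of genes, and busulfan 1 and 2 at 3.89% to 6.24%. The median standard deviation of a gene over the 3 libraries was 0.222 on the log2 scale in the busulfan group and 0.103 in the control group. Busulfan 3 therefore lay nearer to the control libraries than to the others of its own label. Its level relative to the mean of all 12 libraries also fell with transcript length (Spearman -0.524 across genes, which are not independent), against -0.021 and -0.045 in busulfan 1 and 2. Control 2 and 3 had trends of the other sign, at 0.102 and 0.204, and the L.J. groups ran from -0.072 to 0.314. With GC content the trend was 0.378 in busulfan 3, 0.092 and 0.049 in busulfan 1 and 2, and -0.298 to -0.041 in the controls. The labels give no means to check which treatment a kidney had, and whether a wrong label or RNA quality sets busulfan 3 apart was not tested. Each comparison of 3 against 3 libraries below is subject to that doubt, so values are given for each busulfan library. The fit that leaves busulfan 3 out is given beside most genes whose call it changes. That fit rests on busulfan 1 and 2 and drops the library that differed from them. Its adjusted p-values therefore describe how far busulfan 1 and 2 lay from the controls, and are not separate support for a busulfan effect.

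**Figure D1:**
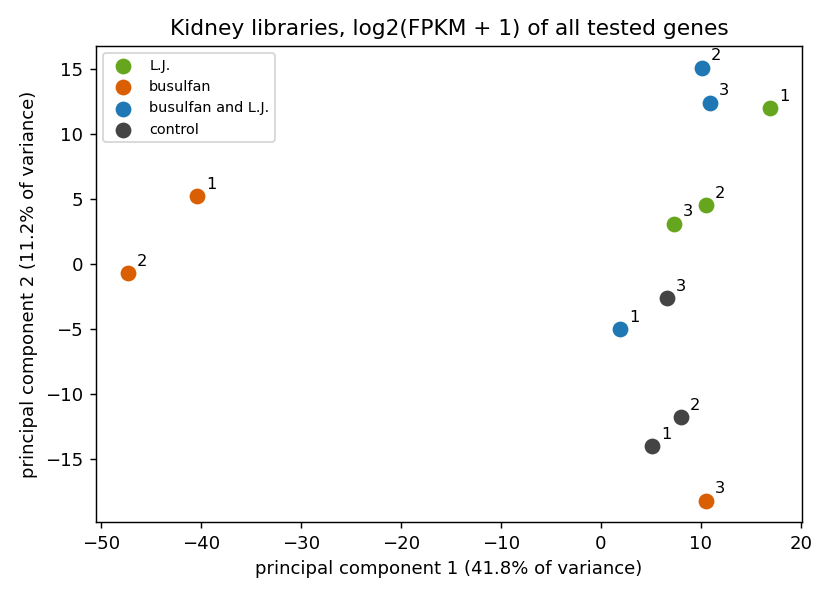
Scores of the 12 kidney libraries on the first and second principal components of log2(FPKM + 1); axes give the share of variance in percent, colours the group and digits the replicate. Busulfan 1 and 2 stand alone at -40.4 and -47.3 on the first component, while busulfan 3, at 10.5, lies beside the controls, at 5.1 to 8.

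Busulfan against control gave 177 called genes, 1.44% of those tested, with 89 higher (0.725%) and 88 lower (0.717%) in busulfan. With the libraries rescaled by median ratios the calls were 394 (3.21%), 146 of them higher (1.19%) and 248 lower (2.02%). In 2705 genes (22.0%) the busulfan and control libraries did not overlap, with busulfan above control in 1805 (14.7%) and below in 900 (7.33%). Without busulfan 3, 3989 genes were called (32.5%), of which 2992 were higher (24.4%) and 997 lower (8.12%), and these included all 177. That fit moved the median change of all genes to 0.15. With median-ratio scaling and no busulfan 3, where the median was 0.00, the calls were 1480 higher (12.1%) and 1731 lower (14.1%). That setting was added after the data were seen. Leaving out any other library left 0 to 2 calls: 1 without busulfan 1, 2 without control 1, and 0 without busulfan 2, control 2 or control 3. The called genes therefore rest on every one of those 5 libraries. They also rest on a spread pooled with the L.J. groups. The median standard deviation of a gene was 0.114 with L.J. alone and 0.142 with busulfan and L.J., against 0.222 with busulfan. When only the 6 libraries compared were fitted, 0 genes were called and the smallest adjusted p in limma was 0.177.

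The called genes differed in transcript length. The 89 called rises had a median length of 1632 bases and the 88 called falls of 5858 bases, against 3042 bases over all tested genes. Busulfan 3 showed such a trend over the whole table, from a median of 0.20 above the control mean in the shortest eighth of genes to -0.30 in the longest. Busulfan 1 and 2 moved from 0.16 to 0.10 and from 0.25 to 0.13 over the same bins. The shortest eighth held 36 of the 89 called rises and the longest eighth 42 of the 88 called falls. After each library was corrected for length and GC content, 2 genes stayed called (0.0164%), and both were rises: Wfdc17 and Jarid2.

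**Figure D2:**
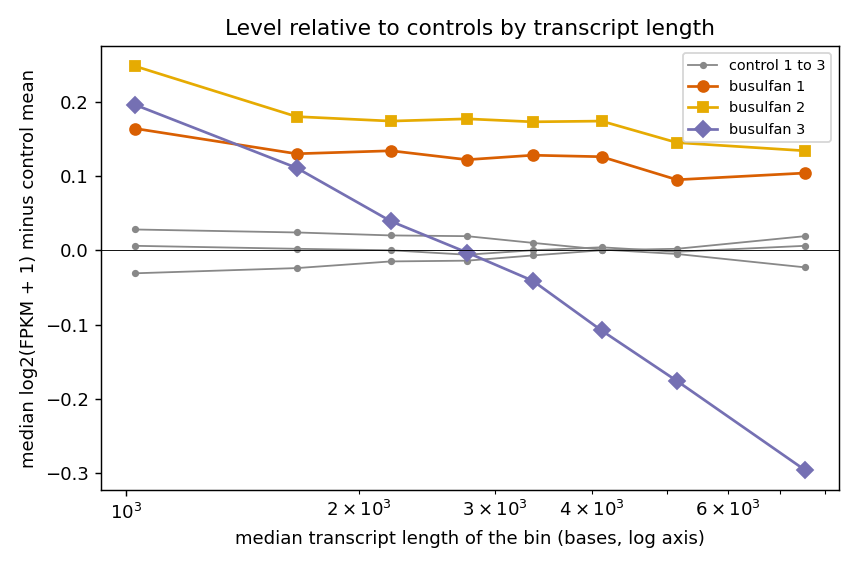
Median log2(FPKM + 1) minus the control mean in 8 bins of tested genes, plotted against the median transcript length of the bin in bases on a log axis; each line is a library, with controls in grey. Busulfan 3 falls from 0.196 to -0.296 along the axis, while busulfan 1 and 2 stay between 0.095 and 0.248.

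Wfdc17, a small secreted WAP-domain protein made by mouse myeloid cells, had 0.81, 0.47 and 0.61 FPKM in control 1 to 3 and 2.76, 3.03 and 2.80 in busulfan 1 to 3. All busulfan libraries sat close together above all controls. Its log2 change was 1.25 ± 0.15 (SE; adjusted p = 0.0138), and 1.16 after the length and GC correction (adjusted p = 0.0399). Jarid2, a cofactor of the Polycomb complex that methylates histone H3, stood at 5.55, 5.67 and 6.42 FPKM in the controls and at 10.41, 10.48 and 7.99 in busulfan 1 to 3. It too did not overlap, with busulfan 3 the lowest of the treated libraries. The log2 change of Jarid2 was 0.62 ± 0.11 (SE; adjusted p = 0.0364), and 0.70 after the correction (adjusted p = 0.0399).

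Because the study's drug is cleared by glutathione conjugation, the alpha-class and microsomal glutathione transferases come first. Of 8 tested members, 4 rose and 0 fell, beside 0.725% and 0.717% of all genes. The median change was 1.10 against 0.08 over all genes. The medians in busulfan 1, 2 and 3 were 1.03, 1.5 and 0.55 above the control mean. In bulk tissue a change in the number of cells of a type and a change in RNA per cell cannot be told apart, here and in every result below.

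Gsta1, the alpha-class enzyme on chromosome 9 (GRCm38.p6, 78230669 to 78242683), had 1.77, 2.11 and 4.29 FPKM in control 1 to 3 and 13.82, 11.51 and 5.93 in busulfan 1 to 3. The groups did not overlap, and busulfan 3 was near the highest control. Its log2 change was 1.61 ± 0.34 (SE; adjusted p = 0.0472), and 1.93 without busulfan 3 (adjusted p = 0.00183). Gsta2, its close paralog beside it on chromosome 9, had 13.66, 19.42 and 40.83 FPKM in the controls and 96.61, 97.76 and 32.17 in busulfan 1 to 3, so that busulfan 3 lay inside the control range; it was chosen for that split, and no test is given. Reads of these near-identical genes may be shared, so the split between them is uncertain.

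Mgst1, the membrane-bound microsomal transferase on chromosome 6 (138140527 to 138156755), stood at 26.65, 26.79 and 24.07 FPKM in the controls and at 78.92, 136.64 and 41.76 in busulfan 1 to 3. The lowest busulfan library was above the highest control. Its log2 change was 1.54 ± 0.33 (SE; adjusted p = 0.0486). Gsta3 had 18.82, 25.10 and 24.43 FPKM in the controls and 45.65, 69.83 and 34.64 in busulfan 1 to 3, again with no overlap (log2 change 1.05 ± 0.23, SE; adjusted p = 0.0492). Ltc4s, which joins glutathione to leukotriene A4, had 7.32, 4 and 5.64 FPKM in the controls and 12.75, 16.38 and 11.68 in busulfan 1 to 3. It was the most even of the 4, with a log2 change of 1.15 ± 0.21 (SE; adjusted p = 0.0364). None of the 4 stayed called after the length and GC correction, where their adjusted p ran from 0.121 to 0.125 and their changes from 0.91 to 1.53.

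The antioxidant response element is the DNA motif through which NRF2 raises conjugation genes, and its core was searched as TGACNNNGC on both strands in the 250 bases upstream of RefSeq gene starts (GRCm38.p6). It occurred in 2743 of 27018 such windows (10.2%). The windows of Gsta3 (chr1:21240335-21240584, plus strand) and Mgst1 (chr6:138140277-138140526, plus strand) each held 1 match, shown in capitals, because both genes rose. The windows of Gsta1, Gsta2, Mgst3, Ltc4s, Ptges and a second Mgst1 start held none. A match is a description of these letters and not a site.
Gsta3: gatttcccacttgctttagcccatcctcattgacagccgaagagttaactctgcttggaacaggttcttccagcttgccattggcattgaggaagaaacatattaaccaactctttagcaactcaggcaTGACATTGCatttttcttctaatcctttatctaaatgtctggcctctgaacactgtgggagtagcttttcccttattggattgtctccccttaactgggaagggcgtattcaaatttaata
Mgst1: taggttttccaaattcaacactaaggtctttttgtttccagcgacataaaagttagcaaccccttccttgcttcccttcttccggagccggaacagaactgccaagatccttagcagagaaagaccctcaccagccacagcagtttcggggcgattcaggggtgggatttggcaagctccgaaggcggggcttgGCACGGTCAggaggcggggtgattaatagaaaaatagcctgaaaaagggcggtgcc

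Other glutathione genes gave no calls. Among 13 tested transferases of the mu, pi, theta, kappa, zeta and omega classes 0 were called, and busulfan was above control without overlap in 5 and below in 1, beside 14.7% and 7.33% of all genes. Gstm7 had 3.60, 4.25 and 4.49 FPKM in the controls and 11.10, 11.92 and 5.57 in busulfan 1 to 3 (adjusted p = 0.0543, and 0.000299 without busulfan 3). Gstp1, the pi-class enzyme, had 333, 387 and 481 FPKM in the controls and 220, 217 and 303 in busulfan 1 to 3 (adjusted p = 0.125, and 0.0275 without busulfan 3). Of 17 tested genes of glutathione synthesis and NRF2 response 0 were called, with a median of -0.16. Without busulfan 3, 3 of these were higher and 6 lower, beside 24.4% and 8.12% of all genes. Among the lower, Hmox1, which degrades haem, had 27.1 to 34.8 FPKM in the controls and 9.87 and 10.18 in busulfan 1 and 2. Busulfan 3 had 37.71 FPKM of Hmox1 (adjusted p without busulfan 3 = 5.45e-05). Nqo1 and Ephx1 were among the higher, and neither overlapped. Nqo1 had 16.69, 20.84 and 20.31 FPKM in the controls and 27.62, 36.86 and 21.28 in busulfan 1 to 3 (adjusted p = 0.137, and 0.0103 without busulfan 3). Ephx1 had 17.95, 16.45 and 15.62 FPKM in the controls and 28.06, 51.92 and 19.08 in busulfan 1 to 3 (adjusted p = 0.106, and 0.00268 without busulfan 3).

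Among other drug-handling genes, 1 of 15 tested cytochrome P450 genes of families 1 to 3 was called, a rise, beside 0.725% of all genes. Cyp2a5, which hydroxylates coumarin and nicotine, had 54.53, 46.01 and 60.98 FPKM in the controls and 167.92, 125.56 and 87.57 in busulfan 1 to 3. All busulfan libraries exceeded all controls (log2 change 1.18 ± 0.24, SE; adjusted p = 0.0451). The glucuronidation and sulfation list had 0 called of 17, but held the gene with the largest log2 difference between the mean of busulfan 1 and 2 and the controls among the genes named here. Ugt1a2, a glucuronosyltransferase, had 0.27, 0.30 and 0.54 FPKM in the controls, 61.53 and 72.69 in busulfan 1 and 2, and 1.43 in busulfan 3 (log2 change 4.03 ± 0.96, SE; adjusted p = 0.0567). The Ugt1a genes share their last exons, so the value may include reads of its neighbours. Without busulfan 3 its log2 change was 5.64 (adjusted p = 1.53e-07).

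Transport of drugs and organic ions gave 0 called of 25. Slco1a1, an organic anion uptake carrier, had 292, 292 and 229 FPKM in the controls, 28.4 and 27.0 in busulfan 1 and 2, and 190 in busulfan 3 (adjusted p = 0.0567, and 2.94e-07 without busulfan 3). Busulfan 3 thus lay below the controls but much nearer to them than the other treated libraries. Abcb1b, a P-glycoprotein that pumps drugs out of cells, stood at 0.67, 1.14 and 1.77 FPKM in the controls, 9.15 and 9.63 in busulfan 1 and 2, and 0.83 in busulfan 3. It was named because busulfan 1 and 2 shared a shift that busulfan 3 did not, and no test is given for it.

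**Figure D3:**
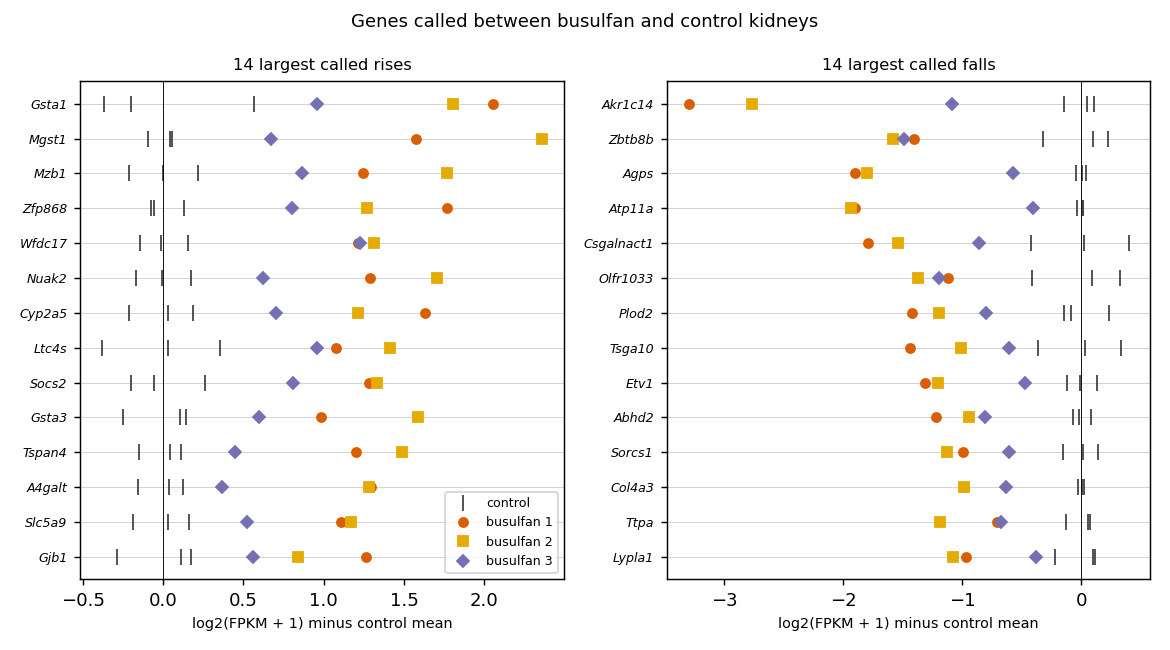
Log2(FPKM + 1) minus the control mean for the 14 largest called rises (left) and falls (right); bars mark the 3 control libraries and symbols the 3 busulfan libraries. Busulfan 3 is the least shifted treated library for all 14 rises except Wfdc17, and lies between the other busulfan libraries for Wfdc17, Zbtb8b and Olfr1033.

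Beyond conjugation, the largest rises spanned unrelated functions. Zfp868, a zinc finger protein, had 3.86, 4.61 and 3.93 FPKM in the controls and 16.47, 11.37 and 7.93 in busulfan 1 to 3. Nuak2, a kinase related to AMPK, had 19.38, 21.76 and 24.83 FPKM in the controls and 54.85, 73.70 and 34.27 in busulfan 1 to 3. Both rose with no overlap (adjusted p = 0.0383 and 0.0364). Socs2, the feedback inhibitor of growth hormone signalling, had 5.81, 5.17 and 7.51 FPKM in the controls and 16.26, 16.85 and 11.44 in busulfan 1 to 3 (log2 change 1.14 ± 0.21, SE; adjusted p = 0.0364), the only call among 15 tested genes of that pathway. Mzb1, an endoplasmic reticulum protein of B and plasma cells, had 0.97, 0.69 and 0.46 FPKM in the controls and 3.01, 4.77 and 2.08 in busulfan 1 to 3 (adjusted p = 0.0364). It was the 1 call among 5 tested B and plasma cell genes. The share of all genes called higher, beside this count and that of Socs2, was 0.725%. Of the other B and plasma cell genes, Jchain had 15, 14.4 and 5.2 FPKM in the controls and 14.6, 30.6 and 30.9 in busulfan 1 to 3. Tspan4, A4galt, Slc5a9, Gjb1 and Scnn1a completed the 15, with changes of 0.89 to 1.04.

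Other rises were smaller and less uneven across the busulfan libraries. Even so, busulfan 3 was the least shifted treated library in Sh3bp1 and Stc1. Its log2 shifts there were 0.634 and 0.551, against 0.893 to 0.933 in busulfan 1 and 2. Sh3bp1, a GTPase-activating protein, had 3.40, 3.58 and 3.65 FPKM in the controls and 7.52, 7.67 and 6.05 in busulfan 1 to 3 (log2 change 0.82 ± 0.13, SE; adjusted p = 0.0339). Stc1, the calcium-regulating hormone stanniocalcin, had 0.99, 1.29 and 1.31 FPKM in the controls and 3.17, 3.07 and 2.21 in busulfan 1 to 3 (adjusted p = 0.0364). For both, the lowest busulfan library was well above the highest control. B3gnt7, Prkar1b and Sap25 were chosen by the same rule, which took called genes with the smallest range over the busulfan libraries for their change. Phlda1, the 1 call among 15 tested immediate early and stress-induced genes, had 7.04, 6.97 and 7.10 FPKM in the controls and 10.39, 12.07 and 11.72 in busulfan 1 to 3, with busulfan 3 between the other treated libraries (log2 change 0.62 ± 0.09, SE; adjusted p = 0.0262). Over all genes 0.725% were called higher.

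The largest fall was that of Akr1c14, an aldo-keto reductase that reduces steroid hormones (chromosome 13, 4048991 to 4090560). It had 192, 229 and 220 FPKM in the controls and 20.8, 30.4 and 100.1 in busulfan 1 to 3. Busulfan 3 took an intermediate place between the other treated libraries and the controls. The log2 change was -2.38 ± 0.41 (SE; adjusted p = 0.0364), and -3.04 without busulfan 3. It was the 1 call among 14 tested aldo-keto reductases, beside 0.717% of all genes called lower. Another of these reductases, Akr1c19, had 6.89, 7.49 and 9.79 FPKM in the controls and 27.06, 31.01 and 8.19 in busulfan 1 to 3 (adjusted p = 0.104, and 0.000131 without busulfan 3).

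Enzymes of ether lipids and peroxisomes were among the falls. Of 25 tested ether lipid and phospholipid genes, 4 fell and 0 rose, beside 0.717% and 0.725% of all genes, with a list median of 0.00. Agps, which forms the ether bond of plasmalogens in the peroxisome, had 62.6, 59.0 and 61.1 FPKM in the controls and 15.6, 16.8 and 40.6 in busulfan 1 to 3 (log2 change -1.42 ± 0.26, SE; adjusted p = 0.0364). Far1, which makes the fatty alcohols for that step, had 84.0, 86.2 and 80.7 FPKM in the controls and 54.8, 60.4 and 50.1 in busulfan 1 to 3 (adjusted p = 0.0383). Busulfan 3 was the lowest of the 6 for Far1 and the highest treated library for Agps. After the length and GC correction Far1 shifted by -0.531, -0.387 and -0.414 in busulfan 1 to 3, so busulfan 3 was no longer the lowest. Agps then shifted by -1.822, -1.723 and -0.227. The other falls of the list were Atp11a, a phospholipid flippase, at 345 to 358 FPKM in the controls and 93.8, 91.7 and 266.9 in busulfan 1 to 3, and Abhd2, a lipase, at 28.1 to 31.3 FPKM and 12.1, 14.9 and 16.4. Abhd2 had the smallest adjusted p of all genes (0.0137), and after the length and GC correction its adjusted p was 0.0511. The corrected adjusted p was 0.0832 for Far1, 0.127 for Agps and 0.129 for Atp11a.

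Among 29 tested PPARA and fatty acid oxidation genes 1 rose and 2 fell, beside 0.725% and 0.717% of all genes. Cyp4a32, a fatty acid hydroxylase, was among the falls, and Hadha, the mitochondrial trifunctional enzyme, was the rise. Hadha moved little, from 56.7 to 57.9 FPKM in the controls to 79.6, 80.0 and 67.5 in busulfan 1 to 3 (log2 change 0.39 ± 0.08, SE; adjusted p = 0.0472). Cyp4a14, of the same hydroxylase family, had 2.04, 2.74 and 1.38 FPKM in the controls, 121 and 151 in busulfan 1 and 2, and 3.98 in busulfan 3 (adjusted p = 0.0602, and 1.53e-07 without busulfan 3).

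Matrix and glomerular genes gave further falls. Col4a3, a collagen chain of the glomerular basement membrane (chromosome 1, 82586921 to 82722059), had 55.3, 56.5 and 57.4 FPKM in the controls and 28.0, 28.0 and 35.9 in busulfan 1 to 3. Its groups did not overlap (log2 change -0.87 ± 0.10, SE, adjusted p = 0.0138). Its transcript is long, at 8554 bases. After the length and GC correction its shifts were -0.969, -0.948 and -0.406 in busulfan 1 to 3 (adjusted p = 0.0832). It was the 1 call among 16 tested podocyte genes; its partner Col4a4 had 38.6 to 49.7 FPKM in the controls and 28.5, 27.7 and 35.2 in busulfan 1 to 3 (adjusted p = 0.0602, and 0.00435 without busulfan 3), and the podocyte marker Nphs1 was not called (adjusted p = 0.518). The annotation places Col4a3 and Col4a4 on partly the same bases, and whether strand was used in counting is unknown, so their reads may not be fully separated. Of 29 tested fibroblast and matrix genes 2 fell and 0 rose, beside 0.717% and 0.725% of all genes. Plod2, which hydroxylates collagen lysines, had 41.5, 43.3 and 54.5 FPKM in the controls and 16.5, 19.6 and 26.1 in busulfan 1 to 3 (log2 change -1.14 ± 0.21, SE; adjusted p = 0.0364). Timp3, a metalloproteinase inhibitor, had 868 to 922 FPKM in the controls and 582, 608 and 707 in busulfan 1 to 3 (adjusted p = 0.0486). After the length and GC correction the adjusted p was 0.107 for Plod2 and 0.132 for Timp3.

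Some falls were close in size across the busulfan libraries. Zbtb8b, a zinc finger protein, had 28.44, 25.90 and 19.11 FPKM in the controls and 8.48, 7.38 and 7.94 in busulfan 1 to 3. The treated libraries lay close together, while the controls varied more (log2 change -1.5 ± 0.26, SE; adjusted p = 0.0364). Olfr1033, Erc2, Arhgap26 and Lrrc8b were also even falls, with changes of -1.23 to -0.70. All 4 have transcripts longer than the median of tested genes, from 3973 to 7898 bases, and their corrected adjusted p ran from 0.109 to 0.131. Ttpa, the vitamin E transfer protein, had 9.09, 8.95 and 7.77 FPKM in the controls and 4.88, 3.2 and 5 in busulfan 1 to 3 (adjusted p = 0.0292). It was less even, with busulfan 2 the lowest.

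The DNA damage lists gave no calls. Of 26 tested p53 target genes 0 were called, and busulfan was above control without overlap in 4, a share near the 14.7% of all genes. Cdkn1a, the cell cycle inhibitor most directly driven by p53, had 10.41, 10.05 and 9.37 FPKM in the controls and 13.33, 39.28 and 18.50 in busulfan 1 to 3. All treated libraries were above all controls, with busulfan 2 far above the rest (log2 change 1.04 ± 0.32, SE; adjusted p = 0.0971; 0.0351 without busulfan 3). Mdm2, the ligase that removes p53, had 12.4 to 13.3 FPKM in the controls and 14.8, 18.5 and 14.3 in busulfan 1 to 3 (adjusted p = 0.197, and 0.049 without busulfan 3). Gdf15 and Phlda3 were also highest in busulfan 2, at 8.70 and 6.42 FPKM against at most 2.55 and 2.36 in the controls (adjusted p = 0.178 and 0.0955, and 0.0687 and 0.023 without busulfan 3). Without busulfan 3, 9 of the 26 were higher and 0 lower, or 5 and 0 with median-ratio scaling, beside 24.4% and 12.1% of all genes.

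Repair and replication genes were likewise uncalled. Of 26 tested crosslink and excision repair genes 0 were called, with medians of 0.11, 0.20 and -0.03 in busulfan 1, 2 and 3, close to the all-gene medians of 0.12, 0.17 and -0.03. Ercc1, the endonuclease subunit of excision repair, had 4.80, 5.05 and 5.69 FPKM in the controls and 7.98, 9.92 and 5.45 in busulfan 1 to 3 (adjusted p = 0.121, and 0.0016 without busulfan 3). Of 25 tested cell cycle and replication genes 0 were called. Pcna, the replication clamp, had 25.0, 25.0 and 23.2 FPKM in the controls and 36.9, 39.7 and 26.6 in busulfan 1 to 3 (adjusted p = 0.076, and 0.000433 without busulfan 3), while Mki67, a proliferation marker, had 0.69 to 1.16 in the controls and 0.38, 0.35 and 0.92.

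Tubular injury genes gave 0 called of 14. Havcr1 (KIM-1), a protein that injured proximal tubules make, had 2.08, 2.17 and 2 FPKM in the controls and 1.99, 2.60 and 1.29 in busulfan 1 to 3 (log2 change -0.08 ± 0.19, SE; adjusted p = 0.822). Lcn2 (NGAL) had 3.01, 3.06 and 0.97 FPKM in the controls and 7.75, 10.74 and 1.30 in busulfan 1 to 3 (adjusted p = 0.443). Of 18 tested acute phase, complement and coagulation genes 0 were called, with a median of 0.30. Busulfan was above control without overlap in 4 of them, beside 14.7% of all genes. C4b, a complement component, had 2.80, 1.99 and 4.90 FPKM in the controls and 17.87, 14.29 and 9 in busulfan 1 to 3, without overlap (log2 change 1.81 ± 0.43, SE; adjusted p = 0.0567, and 0.00781 without busulfan 3). C3 had 6.94 to 7.62 FPKM in the controls and 27.93, 47.76 and 10.99 in busulfan 1 to 3 (adjusted p = 0.092, and 0.00385 without busulfan 3). The neutrophil calprotectin genes S100a8 and S100a9 had at most 1.52 and 2.02 FPKM in the controls, with 28.5 and 44.1 FPKM of S100a8 in busulfan 1 and 2 and 1.92 in busulfan 3 (adjusted p = 0.0665, and 6.83e-06 without busulfan 3). Of 6 tested neutrophil genes 0 were called, and Csf3r, a granulocyte receptor, had 0.93 to 1.14 FPKM in the controls and 1.15 to 1.88 in busulfan.

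Of 70 tested ribosomal protein genes, 11 rose and 0 fell, beside 0.725% and 0.717% of all genes. Busulfan exceeded control without overlap in 58 of them, beside 14.7% of all genes. The rises numbered 21 with median-ratio scaling and 4 with quantile normalization, which called 503 genes in all, and 0 fell under either. Rpl36 had 111, 136 and 134 FPKM in the controls and 237, 286 and 179 in busulfan 1 to 3 (log2 change 0.86 ± 0.18, SE; adjusted p = 0.0457). Fau, which encodes ribosomal protein S30, had 326, 299 and 334 FPKM in the controls and 595, 668 and 415 in busulfan 1 to 3 (adjusted p = 0.0383). In both genes busulfan 3 was the lowest treated library and still above every control. The list medians in busulfan 1, 2 and 3 were 0.64, 0.95 and 0.21; after the length and GC correction the median of busulfan 3 was -0.03. Without busulfan 3, 68 of the 70 were higher, and 60 with median-ratio scaling, beside 24.4% and 12.1% of all genes. Many of these genes have processed pseudogenes that can share reads. Ndufa7 was the 1 call, a rise, among 59 tested nuclear genes of oxidative phosphorylation.

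Along the nephron, the proximal tubule list had 0 called of 28 and a median of -0.10, while the medians of the distal lists lay above that of all genes. Busulfan 1 and 2 carried that difference. In busulfan 3 the medians were -0.068 for the thick ascending limb, -0.032 for the distal convoluted tubule and 0.045 for principal cells, beside -0.031 for all genes. In busulfan 1 and 2 they were 0.37 and 0.783, 0.657 and 0.56, and 0.688 and 0.79, in the same order. Of 14 tested principal cell genes 2 rose, Scnn1a and Hsd11b2, beside 0.725% of all genes. Scnn1a, the alpha subunit of the epithelial sodium channel, had 39.2, 37.8 and 44.5 FPKM in the controls and 82.9, 101.8 and 50.9 in busulfan 1 to 3 (log2 change 0.89 ± 0.19, SE; adjusted p = 0.0492). Hsd11b2, which protects the mineralocorticoid receptor from glucocorticoids, had 56.3, 45.2 and 56.6 FPKM in the controls and 97.0, 102.6 and 70.2 in busulfan 1 to 3 (adjusted p = 0.0428). The water channel Aqp2 of the same cells was not called (adjusted p = 0.69). Of 15 tested distal convoluted tubule genes 1 rose, the kinase Wnk4, at 40.6 to 45.3 FPKM in the controls and 92.4, 85.9 and 54.9 in busulfan 1 to 3 (adjusted p = 0.0428). After the length and GC correction the adjusted p was 0.126 for Scnn1a, 0.131 for Hsd11b2 and 0.109 for Wnk4.

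Intercalated cells, which handle acid and base in the collecting duct, showed a split between the busulfan libraries. Of 17 tested genes 0 were called, with medians of 0.99, 1.01 and 0.07 in busulfan 1, 2 and 3. Atp6v1b1, a proton pump subunit, had 26.2, 22.0 and 27.9 FPKM in the controls, 57.8 and 59.9 in busulfan 1 and 2, and 24.9 in busulfan 3. Slc26a4, the bicarbonate exchanger pendrin, had 12.8, 15.5 and 15.4 FPKM in the controls, 34.1 and 36.5 in busulfan 1 and 2, and 17.7 in busulfan 3. Without busulfan 3, 16 of the 17 were higher, and 15 with median-ratio scaling, beside 24.4% and 12.1% of all genes. Car2, a carbonic anhydrase also used by other tubule cells, was the exception without rescaling (203 to 226 FPKM in the controls, 199 to 244 in busulfan). Of 14 tested thick ascending limb genes 0 were called. Without busulfan 3, 7 were higher and 0 lower, beside 24.4% and 8.12% of all genes. With median-ratio scaling as well the counts were 6 and 1, beside 12.1% and 14.1%.

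**Figure D4:**
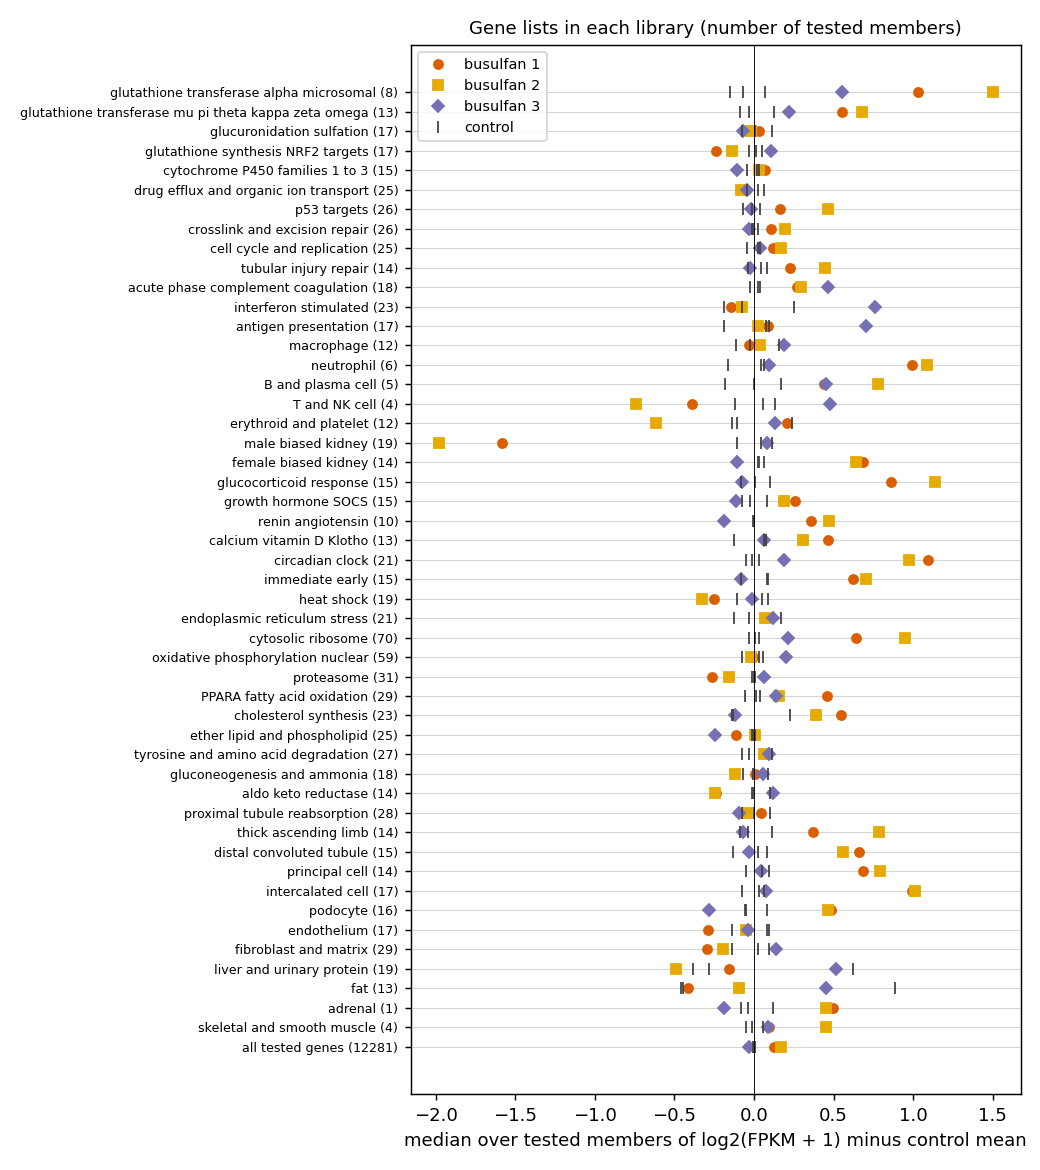
Median over the tested members of each gene list of log2(FPKM + 1) minus the control mean, in each control (bars) and busulfan (symbols) library; the number of tested members is in brackets and the last line is all tested genes. For male-biased genes busulfan 1 and 2 lie at -1.58 and -1.98 and busulfan 3 at 0.08, while for interferon-stimulated genes busulfan 3 alone stands apart, at 0.76.

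By list median, the busulfan libraries differed most for genes that male mouse kidneys express more than female ones. Of 19 tested, 0 were called, and the medians were -1.58 and -1.98 in busulfan 1 and 2 and 0.08 in busulfan 3. Kap, whose expression depends on androgen, had 49389, 46405 and 32135 FPKM in the controls, 10398 and 5031 in busulfan 1 and 2, and 50482 in busulfan 3 (adjusted p = 0.175, and 0.000305 without busulfan 3). Acsm3, an acyl-CoA synthetase, had 796, 650 and 474 FPKM in the controls, 9.24 and 41.94 in busulfan 1 and 2, and 544 in busulfan 3. Odc1, the polyamine enzyme ornithine decarboxylase, had 556 to 705 FPKM in the controls, 107 and 130 in busulfan 1 and 2, and 720 in busulfan 3. In each of these genes busulfan 1 and 2 were far below every control and busulfan 3 was not. For Acsm3 and Odc1 that pattern follows from how they were chosen. Both were named because busulfan 1 and 2 shared a shift that busulfan 3 did not, and no test is given for them. Without busulfan 3, 15 of the 19 were lower, and 15 with median-ratio scaling, beside 8.12% and 14.1% of all genes.

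Y-linked genes were present in all 6 libraries: Ddx3y had 14.2 to 16.5 FPKM in the controls and 15.03, 13.94 and 8.28 in busulfan 1 to 3. Eif2s3y had 46.4 to 51.1 FPKM in the controls and 52.2, 63.3 and 44.7 in busulfan 1 to 3. Xist is not analysed here. Of 14 tested female-biased genes 1 was called, the rise of Cyp2a5, beside 0.725% of all genes. Without busulfan 3 the list went both ways, with 6 higher and 5 lower, beside 24.4% and 8.12% of all genes. Slc17a3, a phosphate and urate transporter of that list, had 254, 260 and 225 FPKM in the controls, 99.6 and 109.1 in busulfan 1 and 2, and 252 in busulfan 3 (adjusted p = 0.112, and 2.68e-05 without busulfan 3). Slc7a12, an amino acid transporter of that list, had 2.18, 1.32 and 1.53 FPKM in the controls, 22.06 and 34.51 in busulfan 1 and 2, and 1.30 in busulfan 3. Prlr, the prolactin receptor, had 1.15, 0.94 and 3.41 FPKM in the controls and 21.89, 7.03 and 1.73 in busulfan 1 to 3.

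Many clock genes also divided the busulfan libraries. The mammalian clock is a loop in which BMAL1 (Arntl) and CLOCK or NPAS2 switch on Per, Cry, Dbp and Rev-erb (Nr1d1) genes, whose products then repress them. Of 21 tested, 0 were called, with medians of 1.09, 0.98 and 0.19. In 7 of them busulfan was above control without overlap and in 2 below, beside 14.7% and 7.33% of all genes. Clock itself was among these, at 10, 10.48 and 10.69 FPKM in the controls and 7.16, 7.69 and 6.64 in busulfan 1 to 3. Busulfan 3 was the lowest, but the Clock transcript is long, at 9744 bases. After the length and GC correction its log2 shifts were -0.41, -0.315 and -0.173, and busulfan 3 was the least shifted. Bhlhe40, a repressor, had 22.3 to 24.8 FPKM in the controls and 52.0, 53.2 and 32.9 in busulfan 1 to 3, all above the controls (adjusted p = 0.0567, and 0.00218 without busulfan 3). In Dbp, Per1 and Arntl busulfan 3 lay nearer the controls. Dbp, an output transcription factor, had 2.05, 2 and 1.65 FPKM in the controls, 45.70 and 35.40 in busulfan 1 and 2, and 2.93 in busulfan 3. Per1 had 3.69, 3.98 and 3.14 FPKM in the controls, 27.21 and 29.83 in busulfan 1 and 2, and 4.67 in busulfan 3. The activator Arntl ran the other way, at 15.12, 13.59 and 15.73 FPKM in the controls, 3.49 and 5.43 in busulfan 1 and 2, and 13.31 in busulfan 3. Without busulfan 3, 14 were higher and 3 lower (Arntl, Clock and Npas2); with median-ratio scaling 11 and 3, beside 24.4% and 8.12%, and 12.1% and 14.1%, of all genes. The labels give no time of day for any kidney.

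The clock activators bind the E-box CACGTG (its own reverse complement), and DBP and its relatives bind D-boxes, searched as TTATGNAA on both strands. In the windows of 250 bases upstream of gene starts, 1634 of 27018 (6.05%) held the E-box and 872 (3.23%) the D-box. The windows of Per1 (chr11:69098699-69098948, plus strand), Per3 (chr4:151044666-151044915, minus strand) and Ciart (chr3:95882229-95882478, minus strand) are shown because these genes moved together in busulfan 1 and 2. Capitals mark the motifs: 1 E-box and 1 D-box in Per1, 2 D-boxes in Per3, and 3 E-boxes in Ciart. Of the other windows searched, those of Tef held 1 E-box at each of 2 starts, and those of Dbp, Nr1d1, Nr1d2, Npas2, Cry2, both Arntl starts and a second Per1 start held neither.
Per1: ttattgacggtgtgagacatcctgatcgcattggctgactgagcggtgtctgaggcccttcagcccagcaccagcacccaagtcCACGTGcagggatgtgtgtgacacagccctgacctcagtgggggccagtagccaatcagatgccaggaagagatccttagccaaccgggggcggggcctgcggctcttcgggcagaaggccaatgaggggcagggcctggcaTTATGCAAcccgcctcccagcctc
Per3: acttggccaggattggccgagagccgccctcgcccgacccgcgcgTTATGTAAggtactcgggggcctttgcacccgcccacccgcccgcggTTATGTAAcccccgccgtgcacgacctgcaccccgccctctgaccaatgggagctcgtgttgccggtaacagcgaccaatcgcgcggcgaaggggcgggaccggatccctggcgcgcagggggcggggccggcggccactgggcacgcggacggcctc
Ciart: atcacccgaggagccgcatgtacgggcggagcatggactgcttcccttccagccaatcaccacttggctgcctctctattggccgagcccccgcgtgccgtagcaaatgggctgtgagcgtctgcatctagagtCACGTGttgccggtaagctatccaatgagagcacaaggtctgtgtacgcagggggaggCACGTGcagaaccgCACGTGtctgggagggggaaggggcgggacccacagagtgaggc

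Ciart, a repressor of the clock, had 1.03, 0.65 and 0.63 FPKM in the controls, 9.85 and 7.05 in busulfan 1 and 2, and 0.73 in busulfan 3. Per3 had 0.88, 1.21 and 0.77 FPKM in the controls, 8.26 and 7.50 in busulfan 1 and 2, and 0.94 in busulfan 3. Both were chosen for this unevenness, and no test is given. The glucocorticoid-responsive list, which shares Per1, had 0 called of 15 and medians of 0.86, 1.14 and -0.08. Mt2, a metallothionein, had 25.68, 21.55 and 26.41 FPKM in the controls, 73.90 and 72.40 in busulfan 1 and 2, and 31.68 in busulfan 3 (adjusted p = 0.0567, and 0.000156 without busulfan 3).

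Kynu, Hpd, Ccl28 and Cyp7b1 were chosen by the rule for uneven genes and are given without a test. Kynu, a kynureninase of tryptophan breakdown, had 1.92, 2.56 and 5.4 FPKM in the controls, 32.71 and 29.20 in busulfan 1 and 2, and 2.06 in busulfan 3. Hpd, of tyrosine breakdown, had 49.4, 40.7 and 144.5 FPKM in the controls, 393 and 523 in busulfan 1 and 2, and 117 in busulfan 3. For Hpd, busulfan 3 lay inside a wide control range. Ccl28, a chemokine, had 55.8, 83.5 and 81.0 FPKM in the controls, 4.6 and 8.7 in busulfan 1 and 2, and 69.9 in busulfan 3. Cyp7b1, an oxysterol hydroxylase, ran from 39.1 to 115.2 FPKM in the controls, with 4.79, 12.42 and 58.56 in busulfan 1 to 3. Apoe, a lipid carrier named by another rule, as a member of the liver list, split alike. It had 108 to 129 FPKM in the controls, 489 and 1054 in busulfan 1 and 2, and 135 in busulfan 3 (adjusted p = 0.0896, and 0.000268 without busulfan 3).

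**Figure D5:**
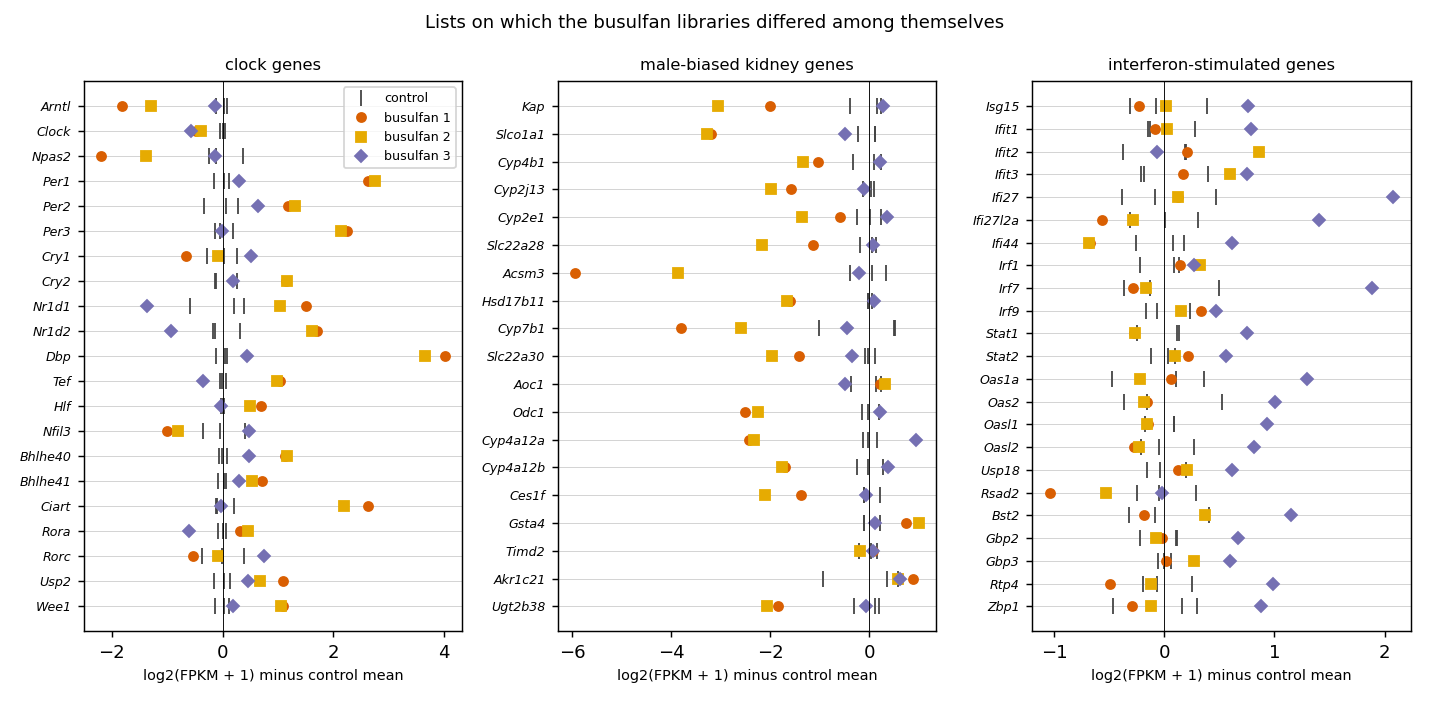
Log2(FPKM + 1) minus the control mean of each tested clock gene, male-biased kidney gene and interferon-stimulated gene; bars mark controls and symbols the busulfan libraries. Busulfan 1 and 2 move together in the first and second panels, with Per1 above 2 and Acsm3 below -3 in both, while in the third panel busulfan 3 exceeds all controls in 21 of 23 genes.

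Busulfan 3 had a difference of its own. Of 23 tested interferon-stimulated genes 0 were called, but 21 were above all 3 controls in busulfan 3, beside 29.0% of all tested genes in that library, while 4 and 6 were so in busulfan 1 and 2, beside 52.4% and 57.0% of all genes. Irf7, the transcription factor that amplifies interferon, had 6.59, 3.16 and 3.92 FPKM in the controls, 3.42 and 3.79 in busulfan 1 and 2, and 18.88 in busulfan 3. Ifi27 had 35.7, 19.4 and 24.0 FPKM in the controls, 27.8 and 27.9 in busulfan 1 and 2, and 111.1 in busulfan 3 (adjusted p = 0.325). The list median of busulfan 3 was 0.76 before and after the length and GC correction. Of antigen presentation genes, 17 of 17 were above all controls in busulfan 3, and 7 and 6 in busulfan 1 and 2. Their list median in busulfan 3 was 0.70, and 0.51 after the correction. In 2 of them, Tap2 and Tapbp, every busulfan library exceeded all controls, beside 14.7% of all genes (adjusted p = 0.0727 and 0.0819, and 0.0296 and 0.0443 without busulfan 3). Cd74, the MHC class II chaperone, had 113 to 133 FPKM in the controls, 145 and 126 in busulfan 1 and 2, and 248 in busulfan 3 (adjusted p = 0.368). Irf7 was chosen after its values were seen. With a single library, this difference has no replicate.

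Markers of other tissues were highest in single libraries of both groups. Of 13 tested fat genes 0 were called, and the list medians were 0.89 in control 3 and 0.45 in busulfan 3 against -0.46 to -0.10 in the other 4 libraries. Adipoq, the fat cell hormone, had 11.54 FPKM in control 3 and 13.14 in busulfan 3, and 3.05 to 4.04 in the others. Of 19 tested liver and urinary protein genes 0 were called, with control 2 and busulfan 3 highest in list median, at 0.62 and 0.51. The part of these tissues in the results above was not tested.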

How the data were processed

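Per the labels' protocols, kidneys were frozen, their RNA was extracted with Trizol, and Illumina libraries were made. The submitters' processing notes name Bowtie 0.12.2 and mm10; the counter, annotation and strandedness were not given in those sources. Deposited by the authors was 1 table of FPKM values for 21004 genes, per the file headers. Of the symbols, 26 stored as dates were restored, and 1 duplicate was dropped. Lengths and GC content came from GENCODE M21 (99.0% of tested genes), and coordinates and promoters from RefSeq (GRCm38.p6).

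With limma 3.58.1 (R 4.3.3, trend option), 1 mean per group was fitted to log2(FPKM + 1) of all 12 libraries. Tests were two-sided, adjusted by Benjamini-Hochberg over 12281 genes, and the method was tested on simulated data. Lists, 49 in all, are described by counts and medians, with no set test. Members and lists were chosen with earlier results of these data known. Named genes were the 15 largest called rises and falls without overlap, 8 even ones per direction, 10 uneven ones per direction with no test, up to 4 per list and 11 fixed genes; others named were chosen after their values were seen. Some named genes are not reported here, and mitochondrial genes are not analysed here. Plots used Python 3.11.15 and matplotlib 3.10.9.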

Additional observations from a re-analysis of the deposited data

How the results depend on the processing

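The number of called genes depended strongly on the processing; the cause was not tested. Against 177 calls (89 higher, 88 lower), a pseudocount of 0.1 gave 200 (106, 94) and a filter on 6 libraries 215 (117, 98). No filter gave 55 (20, 35), quantile normalization 503 (181, 322), median-ratio scaling 394 (146, 248) and the correction for length and GC content 2 (2, 0). Library weights, whose fit did not reach its convergence tolerance, gave 7312 (5214, 2098). With only the 6 libraries compared limma called 0 (0, 0), with 1972 genes at an unadjusted p under 0.05 against 2785 in the fit to all 12 libraries, and a smallest adjusted p of 0.177. Leaving out each library in turn gave 0 to 3989 calls, 0 to 2992 of them higher and 0 to 997 lower; the highest values came without busulfan 3. Settings without busulfan 3, added after seeing the data, gave 4052 (3069, 983) with only the libraries compared, 4251 (3217, 1034) with the length and GC correction, 3251 (1604, 1647) with quantile normalization and 3211 (1480, 1731) with median-ratio scaling. Deviations of same-numbered busulfan and control libraries from their group means correlated at -0.05, -0.012 and -0.05, and those of other pairs at -0.124 to 0.153. Such deviations cancel within a group, so these values cannot decide whether replicate numbers mark paired samples or a shared batch. With the replicate block 11 genes were called (3, 8), and 0 (0, 0) with the block and the length and GC correction. Of 44 named genes, 38 of them called, no direction turned except that of Havcr1 without busulfan 3 (0.09; range over left-out libraries -0.24 to 0.09) and Umod without busulfan 2 (-0.033; range -0.033 to 0.36), both uncalled. The adrenal list had no tested member with the filter on 6 libraries. FPKM rounded to 2 decimals limits the lowest genes.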
